A study of Rattus norvegicus with 8 samples.

Results

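Several serpins and alpha-2-macroglobulin were followed in rat testis after a single oral dose of Adjudin, a compound known to loosen germ cells from the seminiferous epithelium. The 7 genes were Serpina3n, Serpinb1a, Serping1, Serpine2, Serpinf1, Serpinh1 and A2m. They were picked by name from earlier results of these arrays, in which several of them stood higher at 4 d than in control testes. For that reason the contrast of 4 d with control is given for them as a description, with no test. Their members on the array were all probe sets whose only gene symbol was one of the 7, which gave 9 of 31042 non-control probe sets. By the RefSeq gene table (GRCr8), Serpina3n lies on chromosome 6, Serpinb1a on 17, Serping1 on 3, Serpine2 on 9, Serpinf1 on 10, Serpinh1 on 1 and A2m on 4. Whole testes of adult Sprague-Dawley rats were sampled in 3 groups: 4 d after 50 mg/kg Adjudin by gavage (3 arrays), 8 h after the same dose (2 arrays) and untreated control (3 arrays). No vehicle group was named, and nothing in the labels ties each array to its own animal, so p-values measure only how these samples scattered, and that scatter may be technical.

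Serpins are a family of proteins that mostly inhibit serine proteases: the protease cuts an exposed loop of the serpin, the serpin folds the loop into itself, and the enzyme stays trapped on it. A few members have kept the fold and lost the inhibition, among them Serpinf1 and Serpinh1. Alpha-2-macroglobulin belongs to another family and cages proteases of many classes, after which the complex is taken up through the receptor Lrp1. In the seminiferous epithelium, proteases and their inhibitors are released where germ cells move past Sertoli cells, and rat Sertoli cells are known to secrete alpha-2-macroglobulin.

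Signals are MAS 5.0 intensities rescaled so that every array had the same trimmed mean of 500, and differences are on the scale log2(signal + 32), which understates the change of dim probe sets. A probe set was tested where it reached a scaled signal of 100 on at least 2 arrays, and was called at an adjusted p below 0.05 in limma. The arrays had been processed in 3 runs. All 3 groups had 1 array in run 1 and 1 in run 3, while run 2 held 4 d replicate 2 and control replicate 2 and used another version of the fluidics protocol. Arrays of the same group correlated with r of 0.954 to 0.978 across tested probe sets. Some marker genes of other cell types differed between 4 d and control, and none was called at 8 h against control. Over the array 1218 of 19785 tested probe sets rose and 738 fell at 4 d against control, or 2632 and 1819 when runs were blocked. An unadjusted limma p below 0.05 was found there for 4498 in either direction without the block. The summed signal of 12 macrophage and leukocyte markers was 16434 to 19611 at 4 d, 11048 to 11853 at 8 h and 11260 to 11869 in control. At 4 d against control 7 of the 12 rose and 1, Aif1, fell (10 and 1 when runs were blocked). The summed signal of 8 spermatid markers was 112030 to 165404 at 4 d, 170566 to 225577 at 8 h and 163768 to 249952 in control. At 4 d against control 4 of the 8 fell, or all 8 when runs were blocked. Of 6 neutrophil markers listed, 3 had a probe set, and S100a8, S100a9 and Csf3r did not reach the signal minimum. In whole tissue, fewer cells of a type and less RNA per cell cannot be told apart, and the part of cell composition in the values below was not tested. Sums over the other marker lists were 36002 to 47596 at 4 d and 22546 to 26596 in control for 8 Sertoli cell genes (2 rose and 1 fell; 3 and 1 with blocked runs), 6633 to 11425 and 3336 to 5269 for 4 blood and liver genes (Hbb and Alas2 rose), 5499 to 7199 and 4920 to 5177 for 6 peritubular genes (1 rose; 2 rose and 1 fell with blocked runs), 14302 to 23924 and 11738 to 16283 for 6 Leydig cell genes (0 passed in limma, 3 at an unadjusted p below 0.05; 3 rose with blocked runs), and 979 to 1025 and 641 to 737 for 4 endothelial genes (0 passed in limma, 2 at an unadjusted p below 0.05; 1 rose with blocked runs).

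Serpina3n had the greatest difference of the 7 genes between 4 d and control. In mouse, its product is a secreted inhibitor of leukocyte proteases such as granzyme B. Its 1 probe set gave a scaled signal of 1271, 568 and 2284 at 4 d replicates 1, 2 and 3, against 28.4, 43.0 and 70.0 in control replicates 1, 2 and 3. Each 4 d array stood far above the highest control array, and all control and 8 h arrays lay below 100, so that the probe set was tested only because of the 4 d arrays. The means were 1374 ± 863 at 4 d and 47.1 ± 21.1 in control (SD, n = 3 each), a log2 difference of 3.98 (SE 0.42) or 15.8-fold. With dim controls this size depends on the added constant: it was 4.62 with a constant of 4 and 3.52 with a constant of 64. The 3 related genes Serpina3c, Serpina3l and Serpina3m, whose transcripts resemble Serpina3n, stayed at or below 86.4 on all 8 arrays on their own probe sets. Cross-hybridisation of Serpina3n with such copies was not tested.

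The 250 bases before the start of Serpina3n are shown because rat acute-phase serpins and A2m are known targets of the transcription factor Stat3, and because Serpina3n differed most. The sequence is from RefSeq, build GRCr8, plus strand, chr6:129088142-129088391. Capitals mark matches to the STAT motif TTCNNNGAA and to the heat shock motif GAANNTTC.
Serpina3n: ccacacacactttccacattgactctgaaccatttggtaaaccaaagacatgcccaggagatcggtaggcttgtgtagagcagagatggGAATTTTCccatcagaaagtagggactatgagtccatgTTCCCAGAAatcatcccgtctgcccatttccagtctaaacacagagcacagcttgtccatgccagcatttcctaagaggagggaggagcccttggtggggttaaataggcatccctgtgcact
The STAT match began 123 bases before the start and the heat shock match 161 bases before it. Both motifs read the same on either strand and the matches did not overlap. A STAT match was present in 7.67% of 33469 rat promoter windows of the same length and a heat shock match in 7.23%. Promoter sequences were found for 5 of the 7 genes, namely Serpina3n, Serpinb1a, Serpine2, Serpinf1 and Serpinh1. Among these 5, the STAT motif matched 1, Serpina3n. The motif TTNNGNAA of C/EBP factors matched Serpina3n, Serpinf1 and Serpinh1, with 37.2% of all windows holding it. The motifs GGNNNTTCC of NF-kB (15.4% of all windows) and GAAANNGAA of interferon response factors (8.12%), searched on both strands, matched 0 of the 5 windows. These are letter matches and show no binding.

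Serpinb1a encodes a serpin of the cell interior that inhibits neutrophil elastase, cathepsin G and proteinase 3. The brighter of its 2 probe sets had scaled signals of 1129, 1488 and 1441 at 4 d, against 197, 179 and 202 in control. No 4 d array was near a control array, and the replicates lay close together, with a coefficient of variation of 14.4% at 4 d and 6.37% in control. The means were 1353 ± 195 and 192 ± 12.2 (SD, n = 3 each), a log2 difference of 2.62 (SE 0.17) or 6.14-fold. The dimmer probe set had 352, 397 and 357 at 4 d, against 29.6, 100.2 and 122 in control. It ran in the same direction, with a log2 difference of 1.89 (SE 0.32), and its control replicate 1 lay far below the other 2 controls. Without that array the difference was 1.49, and the probe set was not among those called without the arrays of run 2.

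Serping1 encodes the plasma inhibitor of C1r and C1s, the proteases that start the classical complement pathway, and also of kallikrein and factor XII. Its scaled signals were 2131, 2256 and 3561 at 4 d, against 389, 551 and 598 in control. All 4 d arrays were above all control arrays, and replicate 3 was highest in both groups. The means were 2649 ± 792 at 4 d and 513 ± 110 in control (SD, n = 3 each), a log2 difference of 2.28 (SE 0.22) or 4.86-fold. The genes of both target proteases were also higher. C1s had 5212, 5141 and 6691 at 4 d, against 974, 1094 and 1357 in control, a log2 difference of 2.29 (SE 0.16, limma adjusted p = 8.08e-05). C1r had 3540.2, 3208 and 3616 at 4 d, against 1218, 1062 and 1264 in control, a log2 difference of 1.52 (SE 0.13, limma adjusted p = 0.000206). Inhibitor and targets were higher in the same arrays, without overlap between 4 d and control for C1s, C1r or Serping1. Every 4 d array was above every control array in 17.5% of all tested probe sets. Serping1 was chosen with earlier results of these arrays known, so its rise beside C1s and C1r is a description. Masp1 and Masp2, lectin pathway proteases that Serping1 also inhibits, had log2 differences of 0.13 and 0.03 and did not pass (limma adjusted p = 0.83 and 0.978).

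A2m had scaled signals of 2613, 2427 and 3181 at 4 d, against 812, 830 and 951 in control. The groups did not overlap, and the spread was small, with coefficients of variation of 14.3% and 8.77%. The means were 2740 ± 393 at 4 d and 864 ± 75.7 in control (SD, n = 3 each), a log2 difference of 1.62 (SE 0.15) or 3.08-fold. Differences within the runs were 1.65, 1.51 and 1.71 in runs 1, 2 and 3, the narrowest range among the 7 tested probe sets. Lrp1, the receptor that clears protease complexes of A2m and of several serpins, had 1417, 979 and 1071 at 4 d, against 591, 539 and 435 in control. It rose by a log2 of 1.09 (SE 0.19, limma adjusted p = 0.00642; adjusted p = 0.0501 without the arrays of run 2). Lrpap1, a chaperone of that receptor, had a log2 difference of 0.31 and did not pass (limma adjusted p = 0.324). The macroglobulins Pzp and A2ml1 were dim, with log2 differences of -0.43 and -0.41 (limma adjusted p = 0.498 and 0.598), and Mug1 did not reach the signal minimum on enough arrays.

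Serpinh1 encodes a chaperone of procollagen in the endoplasmic reticulum. The brighter of its 2 probe sets, of a kind whose probes can match more than 1 transcript, gave 778, 745 and 628 at 4 d, against 476, 373 and 217 in control. The lowest 4 d array stood above the highest control array, but the controls were widely spread. The means were 717 ± 78.9 at 4 d and 355 ± 130 in control (SD, n = 3 each), a log2 difference of 1.01 (SE 0.25) or 2.01-fold. The dimmer probe set was at 22.0, 25.2 and 50.0 at 4 d, against 6.2, 23 and 31.8 in control, and was not tested because no array reached 100. The 250 bases before the start of Serpinh1 are shown because genes of this chaperone are known to carry heat shock elements. The sequence is from RefSeq, build GRCr8, minus strand, chr1:163062977-163063226, with the match to GAANNTTC in capitals.
Serpinh1: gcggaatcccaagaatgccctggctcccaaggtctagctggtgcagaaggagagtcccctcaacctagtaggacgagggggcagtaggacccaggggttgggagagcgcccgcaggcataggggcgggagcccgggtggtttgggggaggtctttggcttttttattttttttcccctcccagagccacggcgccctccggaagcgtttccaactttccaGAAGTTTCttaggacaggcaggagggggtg
The match began 30 bases before the start and overlapped the C/EBP match, which began 35 bases before it.

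Genes of the collagens that Serpinh1 folds, and of the enzymes that modify them, were measured on the same arrays. This and the other lists of related genes, 6 in all, were chosen with earlier results of these arrays known. Their counts and medians are therefore a description. List counts are per gene, by its brightest tested probe set, while shares over the array are per probe set. Of 20 tested genes of the collagen list, 7 rose and 1 fell at 4 d against control, where 6.16% of all tested probe sets rose. The 8 calls became 3 or 4 without control replicate 1, control replicate 2 or any 1 of the 4 d arrays. They became 3 with median scaling and 1 without the arrays of run 2. Blocked runs gave 10 higher and 1 lower, with 2632 higher and 1819 lower over all tested probe sets. The median log2 difference of the list was 0.58, against 0.031 over all 11241 tested genes. P4hb, a subunit of prolyl hydroxylase, rose by a log2 of 1.00 (SE 0.11, limma adjusted p = 0.000605). Fkbp10, another chaperone of procollagen, had 511, 455 and 431 at 4 d, against 224, 212 and 219 in control, a log2 difference of 0.99 (SE 0.15, limma adjusted p = 0.004). Col3a1 rose by a log2 of 1.15 (limma adjusted p = 0.0242), with a call lost in 7 of 20 alternatives, among them each one that left out a 4 d array. P4ha3, a prolyl hydroxylase subunit, fell by 2.73 on the log2 scale (limma adjusted p = 0.0113), to 45.8, 60.4 and 19.6 at 4 d, against 582, 539 and 274 in control, and stood at 10.6 and 178.9 at 8 h (log2 -2.33 against control, limma adjusted p = 0.449). Since all 4 d arrays of P4ha3 lay below the signal minimum, the size at 4 d depends on the added constant, from -3.4 with a constant of 4 to -2.28 with 64. The call was lost without the arrays of run 2, as was that of Fkbp10 (limma adjusted p = 0.0979 and 0.0666). Col1a1 and Col1a2, the chains of type I collagen, had log2 differences of 0.20 and 0.56 and did not pass (limma adjusted p = 0.814 and 0.558).

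Serpinf1 encodes a secreted serpin without inhibitory action, best known as a factor that restrains blood vessel growth. Its scaled signals were 279.5, 332 and 467 at 4 d, against 116, 177 and 414 in control. The groups overlapped, since control replicate 3 stood above 4 d replicates 1 and 2. The log2 difference was 0.68 (SE 0.38), with 1.07, 0.80 and 0.16 in runs 1, 2 and 3, and 0.33 without control replicate 1 or 1.13 without control replicate 3. Serpinf1 was not among the probe sets called in the fit without a block, and was called when runs were blocked. Serpine2, which encodes an inhibitor of thrombin, urokinase and plasmin, was at 49.4, 79.8 and 41.6 at 4 d, against 74.2, 62.6 and 67.6 in control. All 8 arrays lay below 100, and it was not tested.

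**Figure D1:**
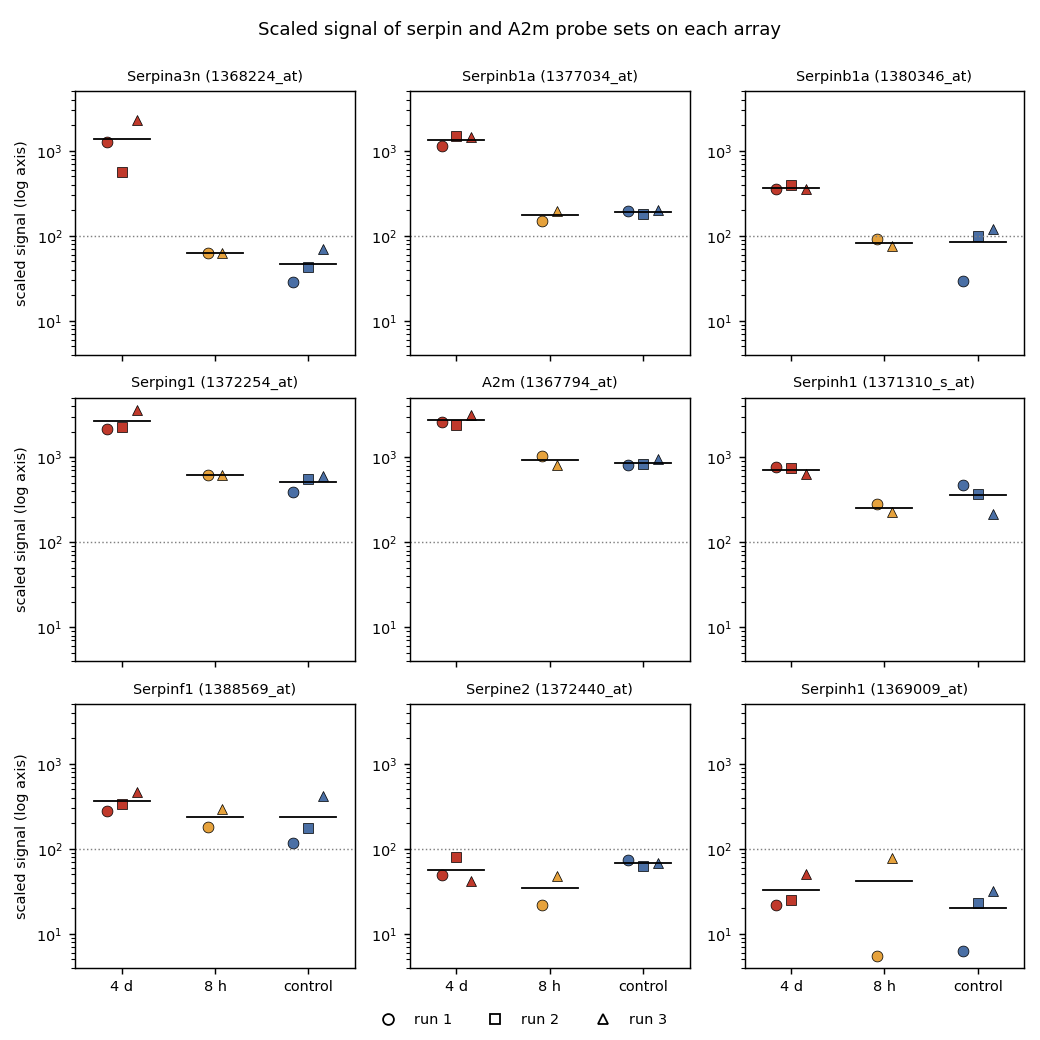
Scaled signal on a log axis for the 9 probe sets on every array, at 4 d (3 arrays), 8 h (2 arrays) and control (3 arrays). Points are arrays, their shape is the run, bars are group means and the dotted line is the signal minimum of 100. In the panels of Serpina3n, Serpinb1a, Serping1, A2m and the brighter Serpinh1 probe set the 4 d arrays stand above all control and 8 h arrays, those of Serpinf1 overlap, and Serpine2 and the other Serpinh1 probe set stay below 100.

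In all, 6 of the 7 tested probe sets, of 5 genes, were among those called higher at 4 d against control, and 0 were called lower. Across the array 6.16% of 19785 tested probe sets were called higher in that comparison. With the run as a block all 7 were called, in a fit that called 2632 of the 19785 tested probe sets higher. In the same 6 probe sets every 4 d array was above every control array, a pattern found in 17.5% of all tested probe sets. These counts describe the choice of the genes. The balance of calls over the array depended on scaling, with 1218 higher and 738 lower as reported and 1135 higher and 986 lower after quantile normalization. The probe sets of Serpina3n, Serpinb1a, Serping1 and A2m kept differences of at least 1.49 under all 20 alternatives that were run, while Serpinh1 ranged from 0.72 to 1.23 and Serpinf1 from 0.33 to 1.13. The call of Serpinh1 was lost without control replicate 2, without any 1 of the 4 d arrays, without the intensity trend and without the arrays of run 2.

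None of the 7 tested probe sets passed the test at 8 h against control, in a comparison of 2 arrays with 3. This contrast was not used to choose the genes, although it shares the control arrays with the one above. Serpina3n had 63.4 and 63.2 at 8 h, against 28.4, 43.0 and 70.0 in control, inside the range of the controls. Its log2 difference was 0.30 (95% interval -0.75 to 1.35, limma adjusted p = 1). The brighter probe set of Serpinb1a had 150.3 and 199 at 8 h, against 197, 179 and 202 in control, a log2 difference of -0.13 (interval -0.55 to 0.29). Its second probe set differed by 0.09 (interval -0.72 to 0.89). Both 8 h arrays of Serping1, at 621 and 625, were above all controls, at 389, 551 and 598, with a log2 difference of 0.29 (interval -0.26 to 0.83). A2m had 1034 and 812 at 8 h, against 812, 830 and 951 in control, a log2 difference of 0.09 (interval -0.29 to 0.46).

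Among the tested probe sets, that of Serpinh1 had the lowest difference at 8 h, with 280.1 and 228 against 476, 373 and 217 in control (log2 -0.38, interval -1 to 0.23). Within the runs it was -0.70 in run 1 and 0.06 in run 3. Serpinf1 had 179 and 289.9 at 8 h, against 116, 177 and 414 in control (log2 0.12, interval -0.82 to 1.06). Serpine2, not tested, had 21.8 and 47.8 at 8 h, against 74.2, 62.6 and 67.6 in control, so that both 8 h arrays lay below all controls (log2 -0.61), with every value under the signal minimum. The limma adjusted p was 1 for all 7 tested probe sets, and the lowest when runs were blocked was 0.671, for Serpinh1. The number called was 0 of 7 (limma, with 0 at an unadjusted p below 0.05), against 0.0657% of all tested probe sets. Over all 19785 tested probe sets 773 had an unadjusted limma p below 0.05. With 2 arrays at 8 h the intervals still include differences of up to 1.35 on the log2 scale for Serpina3n and 0.46 for A2m.

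**Figure D2:**
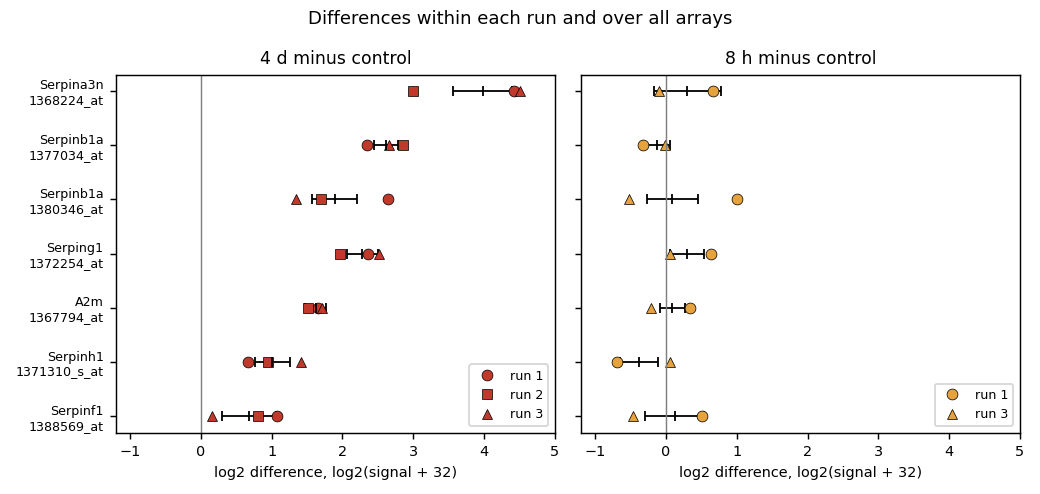
Log2 differences of the 7 tested probe sets, 4 d minus control on the left and 8 h minus control on the right, on the log2(signal + 32) scale. Coloured points are differences within a run, and black ticks with bars are the difference over all arrays with its SE. At 4 d all points lie above 0, from 0.16 for Serpinf1 in run 3 to 4.51 for Serpina3n in run 3, while at 8 h they lie on both sides of 0, between -0.70 and 1.00.

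The later time was also set against the earlier one, which shares the 4 d arrays with the contrast behind the choice and is likewise given without a test for these genes. Serpina3n was 12.8-fold higher at 4 d than at 8 h on the log2(signal + 32) scale (log2 3.68, SE 0.47). Serpinb1a was 6.71-fold higher (log2 2.75, SE 0.19) on its brighter probe set and 3.49-fold on the dimmer one. Serping1 was 3.99-fold, A2m 2.90-fold and Serpinh1 2.62-fold higher. For these genes all 4 d arrays were above both 8 h arrays. Serpinf1 differed by a log2 of 0.56 (SE 0.42). Of the 7 probe sets 6 were called, while 3.58% of all tested probe sets were called higher at 4 d than at 8 h. The calls of the dimmer Serpinb1a probe set and of Serpinh1 were lost without either 8 h array, without 4 d replicate 1, without 4 d replicate 2 and without the arrays of run 2, which left 4 called. Without 4 d replicate 3 that of the dimmer Serpinb1a probe set was lost.

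Some of the genes also differed between runs within a group. Serpina3n, Serping1, Serpinf1 and A2m were highest in run 3 both at 4 d and in control. At 8 h this held for Serpinf1 (0.30 in run 3 and -0.30 in run 1, as deviations from the group mean), while A2m was lower in run 3 (-0.17 against 0.17) and both arrays of Serpina3n and of Serping1 were level. Serpina3n at 4 d stood 0.93 above its group mean on the log2 scale in run 3 and at -1.02 in run 2. For Serpinf1 the deviations in run 3 were 0.38 at 4 d and 0.89 in control. Serpinh1 ran the other way, with its lowest array in run 3 in both groups, at -0.18 at 4 d and -0.58 in control. The brighter probe set of Serpinb1a stayed within 0.24 of its group mean in both groups. Over all 8 arrays the log2 signals of Serpina3n, Serpinb1a, Serping1 and A2m correlated with r of 0.949 to 0.984 in pairs, and Serpinf1 with Serpinh1 at r of 0.095. These values come from 8 arrays that share the runs, and the difference between 4 d and the other arrays carries most of the range.

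The genes whose pattern over the 8 arrays was most like each of them were sought among 11240 other genes by Pearson's r. For A2m they were C1s (r = 0.997), RT1-Da (0.996), which encodes an MHC class II chain, and Tmem50a (0.993). For Serping1 they were Marchf2 (0.994), Prrc2b (0.992) and Olfml1 (0.990). Serpina3n was closest to Haus7 (0.993), Irak1 (0.992), a kinase of interleukin signalling, and Tsx (0.991), and Serpinb1a to Ppdpf (0.997), Olfml3 (0.995) and Plod1 (0.994), a lysyl hydroxylase of collagen. Serpinh1 was closest to Rbbp8 (0.986), Nicol1 (0.985) and Parp14 (0.973), and Serpinf1 to Nme1 (0.988) and the proteasome subunit Psmb1 (0.982), with Lsm4 next (0.973). Of the many genes compared, some reach such an r on 8 arrays because they share the difference at 4 d.

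The rest of the serpin family was mostly dim in these testes. Of 28 other serpin genes with a probe set of their own, counting angiotensinogen (Agt), 10 were tested and 18 did not reach the signal minimum on enough arrays. Of the 10 tested, 2 rose and 0 fell at 4 d, and 8 did not pass. The median log2 difference was -0.52, against 0.031 over all tested genes, and 6.16% of all tested probe sets rose at 4 d. Serpinb6a, an inhibitor inside cells, had 2769, 2939 and 3700 at 4 d, against 1059, 1581 and 1001 in control, a rise of 1.36 (SE 0.21, limma adjusted p = 0.00401). Serpinb9, which in human protects cells from granzyme B, had 892, 561 and 713 at 4 d, against 180.5, 268 and 312 in control, a rise of 1.41 (SE 0.22, limma adjusted p = 0.00448). When runs were blocked 3 others fell, namely Serpina5, Serpinb11 and Serpina1 (limma adjusted p = 0.00208, 0.00936 and 0.0483). That fit called 1819 of all 19785 tested probe sets lower. Serpina1 had 40.0, 42.2 and 64.6 at 4 d and 82.2 and 84.8 at 8 h, against 108.2, 118.2 and 97.0 in control. Only control arrays of Serpina1 reached the signal minimum, so that it was tested only because of them. Serpinb12, with 98.2 ± 24.1 in control, 58.7 ± 5.1 at 4 d and 55.7 ± 7.21 at 8 h (SD), was likewise tested only because of control arrays. Such a selection favours a fall. Its part in the call of Serpina1 and in the median of the list was not tested. Serpina5, the inhibitor of activated protein C, had 2317, 2737 and 2551 at 4 d, against 2926, 4398 and 3933 in control (log2 -0.54, adjusted p = 0.0599 without the block). At 8 h none of the 10 passed in limma (0, with 1 at an unadjusted p below 0.05, Serpinb6a at a log2 of 0.63).

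Proteases and receptors that the serpins act on were measured as a further list. Of 15 tested, 4 rose and 0 fell at 4 d: C1s, C1r, Plat and F2r. The list median was 0.16, against 0.031 over all genes, and 6.16% of all tested probe sets rose. Plat, the tissue plasminogen activator that Serpine2 can inhibit, had 408, 488 and 356 at 4 d, against 114, 152 and 125 in control, a rise of 1.46 (SE 0.18, limma adjusted p = 0.00116). At 8 h it had 332 and 351, above all controls, with a log2 difference of 1.21 (limma adjusted p = 0.112; 0.0144 when runs were blocked). F2r, the thrombin receptor, rose by 0.76 (limma adjusted p = 0.0106), with the call lost without 4 d replicate 1 or the arrays of run 2 (adjusted p up to 0.0754). The urokinase gene Plau had a log2 difference of 0.16, and Pnpla2, a receptor of the Serpinf1 product, one of -0.09 (limma adjusted p = 0.85 and 0.747). F2, F10, F12, Plg, Klkb1, Gzmb, Cma1, Mcpt1 and Plaur did not reach the signal minimum on enough arrays.

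Other inhibitors gave 5 higher and 0 lower of 16 tested at 4 d. With the run as a block they gave 8 higher and 3 lower, in a fit that called 2632 higher and 1819 lower of 19785 tested probe sets. The count of 5 became 2 without control replicate 1 or 4 d replicate 1 and with median scaling. It became 3 without the trend or the arrays of run 2. The list median was 0.45, against 0.031 over all genes, and 6.16% of all tested probe sets rose. Timp1, an inhibitor of metalloproteases, had 13304, 10729 and 18825 at 4 d, against 646, 857 and 1308 in control (log2 3.90, SE 0.27, limma adjusted p = 8.08e-05). Wfdc1, a small secreted protein with a whey acidic protein domain, rose by 1.60 (limma adjusted p = 0.0024). Spint2 and Tfpi, inhibitors of the Kunitz type, rose by 0.69 and 0.67 (limma adjusted p = 0.0172 and 0.0318), calls that were lost in 5 and 7 of 20 alternatives. At 8 h the smallest p belonged to Timp3, with a log2 of 0.62 (limma adjusted p = 0.93).

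Acute-phase genes and the Stat3 pathway were included because rat A2m is a classical acute-phase gene of the liver. This list, like the others, was chosen with earlier results of these arrays known, so its counts and median are a description. Of 18 tested, 10 rose and 0 fell at 4 d, where 6.16% of all tested probe sets rose. The list median was 0.95, against 0.031 over all tested genes. Only 6 rose without control replicate 2 and 5 without the arrays of run 2. Hpx, the haem-binding protein, rose by 5.26 (SE 0.25, limma adjusted p = 9.08e-06), Lcn2, a siderophore-binding protein, by 2.58 (adjusted p = 0.00013), Il6r, a chain of the receptor for interleukin-6, by 2.08 (adjusted p = 0.00635, or 0.0678 without the arrays of run 2; all controls under 100, and 2.84 or 1.66 with an added constant of 4 or 64) and the transcription factor Irf1 by 1.87 (adjusted p = 0.000378). The remaining 6 were Stat3, Cp, Cebpd, Jak2, Il6st and Cebpb. Genes of this list that code for plasma proteins of the liver were divided. Hpx and Cp passed, Cp with a rise of 1.24 (limma adjusted p = 0.00535). Alb, Ttr, Fgg and Fgb did not pass (limma adjusted p = 0.389, 0.899, 0.95 and 0.786). Alb had 94.8 ± 11.6 at 4 d and 135 ± 25.3 in control (SD, n = 3 each). The log2 differences were 0.10 for Ttr, 0.03 for Fgg and 0.32 for Fgb. Fga, Orm1, Crp, Lbp, Apoa1, Il6 and Lif did not reach the signal minimum on enough arrays and were not tested. Haptoglobin (Hp), another acute-phase gene, differed by -0.88 (SE 0.89). At 8 h none passed in limma (0 of 18, with 6 at an unadjusted p below 0.05, against 773 of all 19785 tested probe sets). Hpx had a log2 difference of 1.68 then (limma adjusted p = 0.0942; 0.00126 when runs were blocked), and Stat3 had 697 and 484 at 8 h, against 326, 315 and 278 in control (log2 0.86, limma adjusted p = 0.469).

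**Figure D3:**
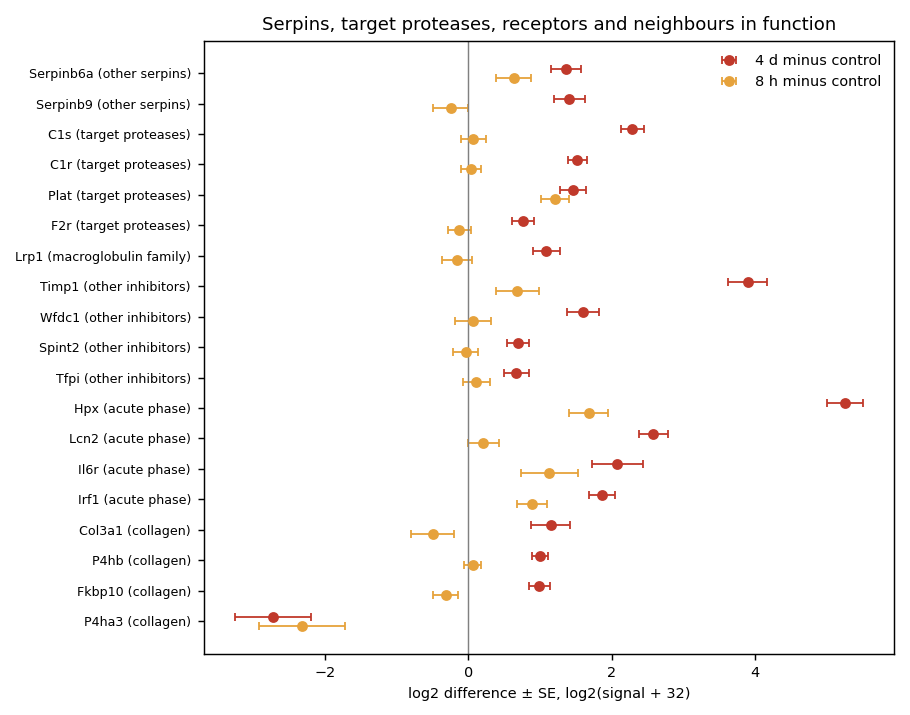
Log2 differences with their SE for 19 genes named with the serpins, at 4 d minus control and at 8 h minus control, on the log2(signal + 32) scale. At 4 d Hpx (5.26) and Timp1 (3.90) lie farthest to the right and P4ha3 (-2.73) to the left; at 8 h C1s and C1r lie near 0, Plat (1.21) and Hpx (1.68) lie to the right of it, and P4ha3 (-2.33) lies to the left.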

How the data were processed

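The deposited values are MAS 5.0 signal intensity, not logarithms, as the series' design text and the submitters' processing notes state the software; trimming 2% at each end gave a mean of 250.1 on every array. GeneSpring is named there too, with no step given. Each array was rescaled to a trimmed mean of 500 and log2(signal + 32) was taken. After the 57 control probe sets were dropped, those reaching 100 on 2 arrays or more were kept, 19785 in all. Differences were fitted on all 8 arrays with limma 3.58.1 in R 4.3.3 (lmFit, eBayes with a trend, no block) and adjusted with the Benjamini-Hochberg method. The fit was checked on simulated data with independent noise on each array and no run effect, so that check does not cover the runs. The number of arrays limits the precision.

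Of the non-control probe sets, 20826 had 1 gene symbol, 436 several and 9780 none, and a listed gene was represented by its brightest tested probe set. The 7 genes, the 6 lists of related genes and the markers were chosen with earlier results of these data known. From each list the text names up to 4 genes past the threshold per comparison by size of difference, or else the one with the smallest p; Masp1, Masp2, Plau, Pnpla2, Col1a1, Col1a2, Stat3, Cp, Il6st and the other acute-phase genes beyond 4, the liver genes, Hp, Alas2 and the genes called with the block were named after their values were seen. Groups came from the sample titles. Runs came from the project field of the array settings files, in which both arrays of run 2 carry the sample type mouse. Deviations from group means correlated at 0.353 to 0.507 between arrays of the same run and at -0.476 to 0.246 between runs. Control and 4 d arrays of 1 number are therefore paired through their run, while 8 h replicate 2 belonged to run 3. Alternatives changed the added constant, scaling, signal minimum, block, trend and arrays. No protein sequences were used, and promoters came from RefSeq.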

Additional observations from a re-analysis of the deposited data

Results flagged for a closer look

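The brighter Serpinh1 probe set stood on opposite sides of its control mean at both times: all 3 arrays were above it at 4 d (log2 1.01 on average) and both arrays below it at 8 h (-0.38). This difference was not tested, and within the runs the 8 h value differed from control by -0.70 in run 1 and 0.06 in run 3. For the genes that the naming rule took from the 6 lists of related genes, 4 d was tested against 8 h in limma. Most of these genes were named because they passed at 4 d against control, which shares the 4 d arrays. Their passes here therefore follow in part from that choice. Over the array 709 of 19785 tested probe sets were called higher and 489 lower in this comparison. Among the genes taken by the rule the difference passed for 15. Genes named outside that rule are not counted there; of these Cp (log2 1.00, adjusted p = 0.034), Il6st (0.70, 0.0375) and the markers RT1-Da (2.35, 0.000988) and Alas2 (0.55, 0.0473) also passed. Lcn2 (log2 2.36), C1s (2.21), Timp1 (3.22), Hpx (3.58) and C1r (1.5) had adjusted p-values of 0.000259 to 0.000709. Higher at 4 d than at 8 h were also P4hb (0.94), Fkbp10 (1.31), Serpinb9 (1.66), Wfdc1 (1.54), Lrp1 (1.26), Col3a1 (1.65), F2r (0.89), Irf1 (0.98) and Spint2 (0.73), with adjusted p-values of 0.00274 to 0.0324. P4ha2, a subunit of prolyl hydroxylase, was lower at 4 d than at 8 h (log2 -0.62, adjusted p = 0.0268), with 1077, 943 and 1012 at 4 d and 1496 and 1634 at 8 h; its difference of 8 h from control was 0.75 (limma adjusted p = 0.158; 0.0433 when runs were blocked).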

How the results depend on the processing

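In the 20 alternatives the number of the 7 tested probe sets called at 4 d stayed within 1.5 times the reported 6, as did that for 4 d against 8 h, and none (0 in limma) was called at 8 h. The run as a block was fitted because the runs pair control with 4 d. It called 4451 probe sets at 4 d, against 1956 without a block, 55 at 8 h, against 13, and 3098 for 4 d against 8 h, against 1198; it also called 3 genes of the related lists at 8 h, namely Plat, Hpx and P4ha2, against 0. The title number as a block, which puts 8 h replicate 2 with the wrong run, called 3494, 38 and 2545, and 1 list gene at 8 h. Median scaling called 1151, 20 and 521, and using only the 2 groups compared called 7 at 8 h. After quantile normalization 4 d against 8 h gave 635 higher and 651 lower, against 709 and 489 as reported. Leaving out 1 array gave 895 to 1803 calls at 4 d (895 without 4 d replicate 1, 1179 without control replicate 2, 1187 without 4 d replicate 3, 1282 without control replicate 1), 0 to 15 at 8 h (0 without either 8 h array, where the lone array is assumed to vary like the other groups) and 264 to 1501 for 4 d against 8 h (398 and 264 without 8 h replicates 1 and 2, 416, 710 and 719 without 4 d replicates 1, 2 and 3). List genes called at 4 d, 30 as reported, were 19 to 30 then. Leaving out the arrays of run 2, added after the data were seen, gave 501, 3 and 353 calls and 14 list genes at 4 d. The cause of these changes was not tested, beyond the fewer arrays.

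By list, genes called at 4 d ranged from 2 to 5 for other serpins, 2 to 11 for other inhibitors, 5 to 11 for acute-phase genes, 1 to 11 for collagen genes, 3 to 6 for proteases and receptors and 0 to 1 for macroglobulins. Small 8 h differences that were not called changed sign: Serpinb1a to -0.31 (dimmer probe set) and Serpinf1 to -0.23 without control replicate 1, Serpinb1a to 0.04 (brighter) and -0.01 (dimmer) and A2m to -0.08 without 8 h replicate 1, and Serpinf1 to -0.19 without 8 h replicate 2. With 1 array left out the 8 h difference ranged from -0.3 to 0.04 and from -0.31 to 0.35 for the brighter and the dimmer Serpinb1a probe set, from -0.23 to 0.57 for Serpinf1 and from -0.08 to 0.25 for A2m.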

Other observations

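A few genes of the list of other inhibitors were lower at 4 d within every run, although they did not pass without the block. They are named here after their values were seen. Itih3, a heavy chain that stabilises hyaluronan matrix, had 1644, 1276 and 577 at 4 d replicates 1, 2 and 3, against 3505, 2685 and 1397 in control replicates 1, 2 and 3. The spread between runs was as large as the difference, and limma gave a log2 of -1.12 with adjusted p = 0.187 without the block and 2.36e-05 with the run as a block. Cast, the inhibitor of calpains, had 1735, 2023 and 1303 at 4 d, against 2692, 2705 and 1979 in control (log2 -0.54, limma adjusted p = 0.102, or 0.00282 with the block). Pebp1, a phosphatidylethanolamine-binding protein, had 21255, 21053 and 26819 at 4 d, against 26373, 24033 and 37126 in control (log2 -0.32, limma adjusted p = 0.366, or 0.00266 with the block).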
